A study of Mus musculus with 26 samples.

Results

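Gene expression in pancreatic islets of old mice was compared between culture at 11 mM and at 5.5 mM glucose. Of the 26 arrays of the study, 4 made up the comparison, chosen by their titles: 2 arrays of old islets at 11 mM and 2 of old islets at 5.5 mM. The islets came from male, wild-type C57/Bl6J mice aged 56 weeks. After isolation, all of the cultured islets had first rested for 1 day in RPMI with 11 mM glucose, fetal calf serum and antibiotics. They were then kept for 2 days at their own concentration, so the 11 mM islets stayed at the resting concentration while the 5.5 mM islets were moved to a lower one. Old islets at 3 mM (2 arrays) and freshly isolated old islets (2 arrays) are used here as reference levels. Islets of 5-week-old mice, treated in the same way at 5.5 mM (2 arrays) and 11 mM (4 arrays), serve as the comparison between ages. Each array measured total RNA of whole islets with Affymetrix probe sets, sets of short oligonucleotides for one transcript, and its values are linear intensities. The labels call the replicates biological and do not say how many mice each came from, so a p-value here reflects only how much the samples vary. In the main fit that spread was estimated over all 26 arrays of the study, not from the 4 compared arrays alone.

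An islet is a small endocrine organ made mostly of insulin-secreting beta cells, with alpha, delta and PP cells beside them. Beta cells take up glucose in proportion to its concentration outside the cell, phosphorylate it and burn it, and the resulting ATP closes potassium channels, lets calcium in and releases insulin. Over longer times glucose also changes transcription, through the sugar-sensing factor ChREBP, through calcium and cAMP signals that act on CREB, and through stress factors such as ATF4 and CHOP. For rodent islets, a concentration near 11 mM is the usual culture condition, whereas 5.5 mM lies close to the threshold for insulin release.

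The 4 arrays carried the islet hormone genes at high intensity. Gcg, which encodes glucagon, read 9021 and 9066 at 5.5 mM and 11615 and 10041 at 11 mM, and Sst, which encodes somatostatin, read 6607 and 6925 against 9019 and 9100. None of the marker lists for acinar (20 genes tested), duct (9), endothelial (15), macrophage and immune (19) or stromal cells (15) had a member past the threshold. The summed intensity of the acinar list was 572 and 633 at 5.5 mM and 747 and 1250 at 11 mM, and that of the endothelial list 923 and 1021 against 763 and 946. The added hybridization control cre read 6952 and 7160 at 5.5 mM and 8774 and 8089 at 11 mM, a log2 difference of 0.26 in a spike that does not come from the islets. The probe set for the 3′ end of 18S ribosomal RNA read 3087 and 2327 against 5457 and 5407. The part of these technical differences in the results was not tested. In whole islets, fewer cells of a type and less RNA per cell cannot be told apart.

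Between 5.5 and 11 mM, 120 of 12580 genes changed in old islets, or 0.954% of those tested. Of these, 57 genes rose (0.453%) and 63 fell (0.501%). A change means a Benjamini-Hochberg adjusted p under 0.05 in limma, a linear model fitted to log2(intensity + 16) over all 26 arrays. On that scale, 30 of the rises and 39 of the falls were at least 2-fold, and the median log2 difference was 1.03 among the rises and -1.10 among the falls. The 11 mM arrays did not overlap the 5.5 mM arrays for any of the 120 genes. Without any test, both 11 mM arrays lay above both 5.5 mM arrays for 26.2% of all genes and below them for 21.7%. The calls lay across the whole range of intensity, as the plot of level against difference shows.

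**Figure D1:**
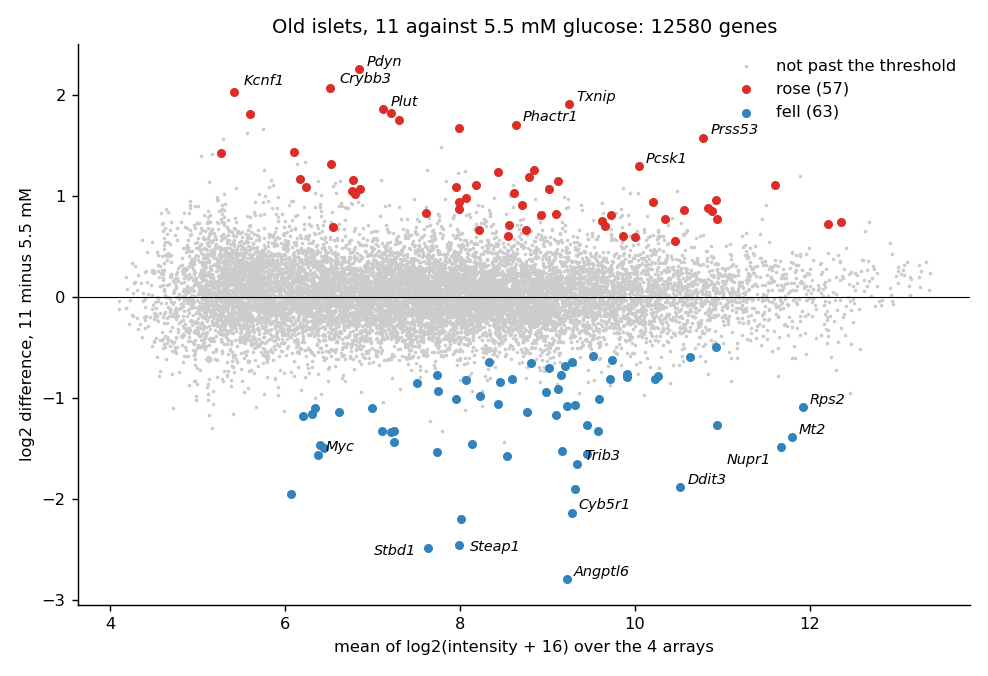
Log2 difference between 11 and 5.5 mM glucose in old islets (vertical axis) against the mean of log2(intensity + 16) over the 4 arrays (horizontal axis), 1 point per gene for 12580 genes. Red points are the 57 genes that rose and blue points the 63 that fell at an adjusted p under 0.05; Angptl6 lies lowest at -2.79 and Pdyn highest at 2.25.

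Txnip had the smallest adjusted p of any rise. It encodes thioredoxin-interacting protein, which binds thioredoxin, restrains glucose uptake and is a classic target of ChREBP and its relative MondoA. Its intensity was 266 and 336 on the 5.5 mM arrays and 1305 and 1037 on the 11 mM arrays. Both 11 mM values lay far above both 5.5 mM values, and the ratio of the means was 3.89. The log2 difference was 1.90 (SE 0.21, n = 2 arrays per group, limma adjusted p = 5.245e-05), and its second, dimmer probe set differed by 1.04. The call held when any of the 4 arrays was left out, with an adjusted p of at most 0.00558. Txnip was nonetheless the single rise among 22 tested members of the ChREBP and lipogenesis list, against 0.453% of all genes rising. The list median was 0.33, against 0.02 over all genes. Both 11 mM arrays were above both 5.5 mM arrays for 14 of these 22 genes, against 26.2% of all genes.

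The promoter of Txnip is shown because it holds a known form of the ChREBP element, a pair of CACGNG half-sites 5 bases apart, in capitals below. The sequence is the 250 bases before the gene's start in RefSeq, build GRCm38.p6, chr3:96557707-96557956 on the plus strand, and the pair begins 85 bases before the start.
Txnip: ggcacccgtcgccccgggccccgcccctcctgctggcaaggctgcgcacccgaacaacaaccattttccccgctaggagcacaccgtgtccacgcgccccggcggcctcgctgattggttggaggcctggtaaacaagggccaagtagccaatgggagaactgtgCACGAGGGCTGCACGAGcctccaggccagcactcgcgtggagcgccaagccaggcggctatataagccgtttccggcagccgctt
RefSeq promoters were matched for 46 of the 57 rises and 51 of the 63 falls, and both strands of each window were searched. The paired element was found in 1 of the 46 rises, Txnip, and in 0 of the 51 falls. It is present in 0.0731% of all 32851 RefSeq windows of this length and in 0.147% of the 10203 tested genes with a promoter. The motif was chosen with the Txnip element already known. The plain E-box CACGTG, which is one case of CACGNG, was found in 4 of the 46 rises and 4 of the 51 falls, against 9.89% of tested genes and 6.02% of all windows.

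Pcsk1 encodes prohormone convertase 1/3, the protease that makes the first cuts in proinsulin. Its intensity was 639 and 681 at 5.5 mM and 1841 and 1456 at 11 mM, 2.5-fold by the means. The log2 difference was 1.29 (SE 0.18, limma adjusted p = 0.00127), and the groups did not overlap. Sytl4 encodes granuphilin, which docks insulin granules at the plasma membrane. It read 1299 and 1480 at 5.5 mM against 3246 and 2254 at 11 mM (log2 difference 0.96, SE 0.15, adjusted p = 0.0032). Pcsk1 and Sytl4 were the 2 rises among 29 tested genes of the list of prohormone processing and granule exocytosis, with no fall and a median difference of 0.20, against 0.453% of all genes rising. With the array set as a factor, a fit described further on, Syt13, a synaptotagmin, also passed (0.41, adjusted p = 0.0249). That made 3 rises of 29, against 2.35% of all genes rising in that fit. The call of Sytl4 was lost without 11 mM replicate 1 or 5.5 mM replicate 1, with an adjusted p of up to 0.11, while Pcsk1 kept its call without any 1 of the 4 arrays.

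In the list of beta cell identity and glucose sensing, 1 of 21 tested genes rose and none fell, against 0.453% of all genes rising. That gene was Ero1b, an oxidase of the endoplasmic reticulum that forms disulfide bonds in proinsulin. It read 4160 and 3926 at 5.5 mM and 7811 and 5880 at 11 mM (log2 difference 0.74, SE 0.17, adjusted p = 0.0437), and its other, dimmer probe sets differed by 1.05 and 1.38. Its call was lost when any one of the 4 arrays was left out, with an adjusted p of up to 0.352, and with no filter or no intensity trend (up to 0.0781). Slc2a2, the beta cell glucose transporter GLUT2, read 2520 and 2460 at 5.5 mM and 6884 and 4765 at 11 mM. Its log2 difference of 1.20 (SE 0.37) was larger than the 0.74 of Ero1b on the probe set used, but Slc2a2 did not pass (adjusted p = 0.153). G6pc2, a glucose-6-phosphatase subunit that opposes glucokinase, read 4754 and 5352 against 8120 and 7738 (0.65, adjusted p = 0.342). Pdx1, a transcription factor that maintains beta cells, read 704 and 721 against 1103 and 1211 (0.69, adjusted p = 0.475). Ins2, one of the insulin genes, read 3223 and 3083 against 5068 and 3500 (0.42, adjusted p = 0.676). Its probe set is of a type that can match related transcripts. Across the list, 16 of 21 genes were higher on both 11 mM arrays, against 26.2% of all genes, and the median difference was 0.34. With the array set as a factor, 3 of the 21 rose, against 2.35% of all genes. Besides Ero1b (adjusted p = 0.00842 in that fit) these were the transcription factors Nkx6-1 and Isl1. Nkx6-1 read 1059 and 1015 against 1886 and 1703 (0.78, adjusted p = 0.091, or 0.00843 with the array set). Isl1 read 2894 and 3202 against 3921 and 4344 (0.44, adjusted p = 0.153, or 0.0369 with the array set). The cre spike differed by 0.26 on the same arrays.

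The gene with the largest log2 difference among the rises was Pdyn, which encodes prodynorphin, the precursor of opioid peptides. It read 37 on both 5.5 mM arrays and 199 and 279 at 11 mM, 6.46-fold by the means (log2 difference 2.25, SE 0.42, limma adjusted p = 0.00861). The call of Pdyn was lost, at an adjusted p of up to 0.143, without 11 mM replicate 2, 5.5 mM replicate 1 or 5.5 mM replicate 2. It was the single member past the threshold of 15 tested neuropeptide and hormone genes, against 0.954% of all genes. The other 14 all had a difference above 0 without passing, and 11 of the 15 were higher on both 11 mM arrays. Of all 12580 genes, 6634 had a difference above 0 and 26.2% were higher on both. Among those that did not pass, Vip, a neuropeptide that raises cAMP, read 58 and 44 at 5.5 mM against 83 and 205 at 11 mM (1.15, adjusted p = 0.801). Npy, which restrains insulin release, read 25 and 41 against 61 and 91 (0.91, adjusted p = 0.624).

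Pcsk1 and Btg2 are shown side by side because they are the rises whose promoters hold the full CRE, TGACGTCA, the palindromic element bound by CREB. Btg2 is an antiproliferative early response gene. It read 300 and 279 at 5.5 mM and 567 and 548 at 11 mM (log2 difference 0.91, SE 0.15, adjusted p = 0.00427). The list of early response and CREB target genes had a median difference of 0.22 over 28 tested. Btg2 was its single call, against 0.954% of all genes called. Its call was lost without 5.5 mM replicate 1 (adjusted p = 0.0583) and with the mean of its probe sets (0.211). The probe set used was the brighter one over all 26 arrays, but its second named probe set read higher on these 4, at 613 and 647 against 1231 and 1298 (0.99). Crem and Nr4a2, which are also targets of CREB, differed by 0.96 and 0.89 and did not pass (adjusted p = 0.106 and 0.217). The windows lie at chr13:75089607-75089856 on the plus strand for Pcsk1 and at chr1:134079156-134079405 on the minus strand for Btg2, with the CRE in capitals 78 and 166 bases before the start.
Pcsk1: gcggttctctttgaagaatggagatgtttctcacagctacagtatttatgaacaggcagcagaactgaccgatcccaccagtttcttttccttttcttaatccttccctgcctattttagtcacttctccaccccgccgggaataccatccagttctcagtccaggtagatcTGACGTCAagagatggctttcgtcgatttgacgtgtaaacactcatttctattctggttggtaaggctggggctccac
Btg2: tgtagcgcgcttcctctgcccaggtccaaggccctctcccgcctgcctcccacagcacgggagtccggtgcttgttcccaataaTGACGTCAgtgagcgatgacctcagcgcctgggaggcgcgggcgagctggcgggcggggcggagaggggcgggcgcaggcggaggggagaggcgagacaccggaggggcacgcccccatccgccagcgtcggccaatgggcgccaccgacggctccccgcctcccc
The CRE was found in 2 of the 46 rises and 1 of the 51 falls, against 3.05% of tested genes and 1.55% of all windows. These counts are descriptions of letters in a window.

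Several further rises involved genes with no list of their own. Kcnf1 encodes an electrically silent potassium channel subunit that modifies other channels. It was near the bottom of the scale at 5.5 mM, at 2 and 9, and read 81 and 61 at 11 mM (log2 difference 2.03, SE 0.26, adjusted p = 0.000394). The call of Kcnf1 held without any 1 of the 4 arrays. Plut, a noncoding RNA transcribed next to Pdx1, read 54 and 61 at 5.5 mM and 304 and 204 at 11 mM (1.85, SE 0.30, adjusted p = 0.0032). Prss53, a gene for a serine protease, had closely matched replicates, at 999 and 1011 against 2922 and 3115 (1.57, SE 0.28, adjusted p = 0.00618). Fmo1, a flavin monooxygenase, read 54 and 74 against 272 and 255 (1.81, SE 0.34, adjusted p = 0.00861). Without 5.5 mM replicate 1 the calls of Plut, Prss53 and Fmo1 were lost. Plut also lost its call without 11 mM replicate 1, Prss53 without 11 mM replicate 2 and Fmo1 without either 11 mM array, at adjusted p-values of up to 0.073, 0.113 and 0.199.

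Crybb3, a lens crystallin gene, had poorly matched replicates. It read 10 and 61 at 5.5 mM and 111 and 260 at 11 mM (2.06, SE 0.45, adjusted p = 0.0284), and without 5.5 mM replicate 1 or 11 mM replicate 2 its call was lost, with an adjusted p of up to 0.596. Phactr1, a regulator of actin and of protein phosphatase, read 194 and 217 against 653 and 755 (1.70, adjusted p = 0.048). Dcx, a microtubule-binding protein of neurons and endocrine cells, read 45 and 40 against 133 and 126 (1.31, adjusted p = 0.0487). Fer1l6, of the ferlin family of membrane proteins, read 121 and 132 against 423 and 453 (1.67, adjusted p = 0.011), and Dapl1 read 84 and 58 against 251 and 297 (1.75, adjusted p = 0.0288). The calls of Phactr1, Dcx, Fer1l6 and Dapl1 were each lost without any one of the 4 arrays. Their differences in those fits ran from 1.60 to 1.80, 1.25 to 1.38, 1.62 to 1.73 and 1.53 to 1.97. Phactr1 and Dcx also lost their calls under 4 of 11 other settings (an offset of 64, no filter, no intensity trend and a replicate block), and Dapl1 with an offset of 64 (adjusted p = 0.0539). The uncharacterized transcript 4931431B13Rik differed by 1.44 (adjusted p = 0.0262) and lost its call without any one of the 4 arrays (up to 0.201) and with an offset of 1 (0.0987). Another, 4933432K03Rik, differed by 1.42 (adjusted p = 0.027) on one of its probe sets and by 0.76 as the mean of them (adjusted p = 0.186). With an offset of 1, 4933432K03Rik was read on another probe set, at 16 and 17 against 24 and 14, and differed by 0.15 (adjusted p = 0.972). With an array other than 5.5 mM replicate 2 left out its adjusted p reached 0.478. Bambi-ps1, which the annotation names as a pseudogene of Bambi, read 8 and 12 against 77 and 72 (1.80, adjusted p = 0.005, up to 0.126 with either 11 mM array or 5.5 mM replicate 1 left out). Bambi itself read 577 and 674 against 705 and 790 and did not pass (adjusted p = 0.756), and signal of a gene and its near copy may be shared.

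**Figure D2:**
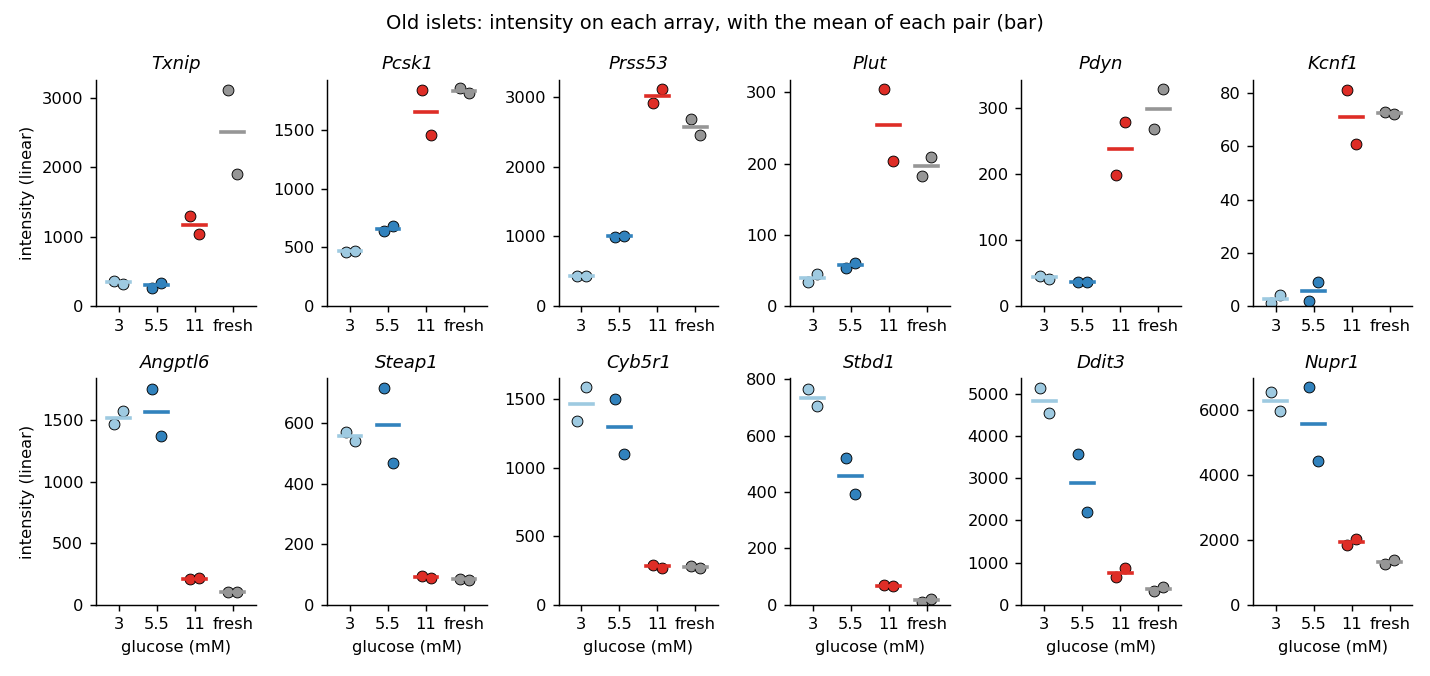
Deposited linear intensity (vertical axes, each starting at 0) on each array of old islets at 3, 5.5 and 11 mM glucose and in fresh islets, for 6 genes that rose (upper row) and 6 that fell (lower row) between 5.5 and 11 mM. Points are arrays and bars the means of the 2 arrays; in every panel both 11 mM points lie on one side of both 5.5 mM points, as for Txnip at 1305 and 1037 against 266 and 336.

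Among the falls, 3 genes belong to the branch of the stress response that runs through ATF4 and CHOP. Ddit3, which encodes CHOP itself, a transcription factor that promotes cell death under lasting stress of the endoplasmic reticulum, read 3571 and 2209 at 5.5 mM and 649 and 864 at 11 mM. The ratio of the 5.5 mM to the 11 mM mean was 3.82, and the log2 difference was -1.89 (SE 0.27, limma adjusted p = 0.00127). The 5.5 mM arrays of Ddit3 were far apart, yet both stood well above the 11 mM arrays. Trib3, a pseudokinase induced by CHOP that restrains Akt, read 1230 and 1047 against 322 and 381 (-1.65, SE 0.35, adjusted p = 0.024), and its other probe set differed by -2.04. Nupr1, a small nuclear protein induced by stress, read 6709 and 4420 against 1846 and 2018 (-1.49, SE 0.22, adjusted p = 0.00163). Without 5.5 mM replicate 1 the adjusted p was 0.0633 for Ddit3 and 0.073 for Nupr1, and Trib3 lost its call without any one of the 4 arrays, at up to 0.3.

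The other 23 of the 26 tested ATF4 and CHOP genes did not pass, and the median difference of the list was 0.04. Atf4 read 3600 and 3527 at 5.5 mM against 3687 and 3988 at 11 mM (adjusted p = 0.873). Chac1, which breaks down glutathione, read 897 and 778 against 960 and 1280 (0.40, adjusted p = 0.62). The serine synthesis enzymes Phgdh and Psat1 differed by 0.35 and 0.52 (adjusted p = 0.803 and 0.737). Cbs, an enzyme of sulfur amino acid metabolism, read 105 and 128 against 314 and 395 (1.48, SE 0.57, adjusted p = 0.294). With the array set as a factor, Cbs passed (SE 0.34, limma adjusted p = 0.0153). None of the 30 tested ER chaperone genes passed either (median 0.13), and Hspa5, the chaperone BiP, read 6925 and 6421 against 5545 and 4166 (-0.47, adjusted p = 0.351).

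The promoter of Nupr1 is shown because it holds a composite C/EBP-ATF site, TGATGNAA, the kind of element through which CHOP and ATF4 act. It lies at chr7:126625471-126625720, and the gene runs on the minus strand. The site reads as its reverse complement, in capitals, 110 bases before the start.
Nupr1: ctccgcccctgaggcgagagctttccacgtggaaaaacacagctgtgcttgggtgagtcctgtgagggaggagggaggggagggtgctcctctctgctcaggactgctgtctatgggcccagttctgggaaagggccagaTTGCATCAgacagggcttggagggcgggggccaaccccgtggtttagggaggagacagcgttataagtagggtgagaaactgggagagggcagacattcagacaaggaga
The same letters occurred in 2 of the 51 falls and in 3 of the 46 rises, against 2.46% of tested genes and 3.45% of all windows.

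The falls with the smallest adjusted p-values lay outside the stress list. Angptl6, a secreted angiopoietin-like protein, read 1756 and 1374 at 5.5 mM and 207 and 214 at 11 mM, a 7.44-fold ratio of 5.5 to 11 mM. Its log2 difference was -2.79 (SE 0.22, adjusted p = 1.128e-06). Cyb5r1, a cytochrome b5 reductase, read 1503 and 1101 against 288 and 272 (-2.14, SE 0.18, adjusted p = 1.208e-06). Steap1, of a family of membrane metalloreductases, read 716 and 469 against 96 and 89 (-2.46, SE 0.21, adjusted p = 1.422e-06), with a second probe set at -2.81. Akna, an AT-hook protein, read 117 and 115 against 27 and 11 (-1.95, SE 0.26, adjusted p = 0.000455). For each of these 4 genes both 11 mM arrays lay well below both 5.5 mM arrays, and each kept its call without any 1 of the 4 arrays.

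Stbd1 was the single gene of glycogen metabolism to change, among 18 tested, against 0.954% of all genes changing. It encodes a protein that binds glycogen and tethers it to membranes. It read 519 and 394 at 5.5 mM and 71 and 65 at 11 mM, a 6.71-fold ratio of 5.5 to 11 mM (log2 difference -2.48, SE 0.28, limma adjusted p = 8.352e-05). The highest adjusted p of Stbd1 with an array left out was 0.00793. The median of the list was -0.08. Gys1, a glycogen synthase, read 59 and 35 against 75 and 65 (0.47, adjusted p = 0.827), and Ppp1r3c, which recruits protein phosphatase to glycogen, read 86 and 151 against 96 and 67 (-0.44, adjusted p = 0.665).

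Myc, the transcription factor that drives ribosome production and growth, read 147 and 110 at 5.5 mM and 33 and 32 at 11 mM (-1.56, SE 0.31, adjusted p = 0.0134). Bmi1, a Polycomb protein that represses the Cdkn2a locus and declines with age in beta cells of mice, read 1964 and 1906 against 1416 and 1144 (-0.60, SE 0.13, adjusted p = 0.0358). They were the 2 falls among 19 tested genes of the list of D-type cyclins, CDK inhibitors and ageing regulators, with no rise, against 0.501% of all genes falling. With the array set as a factor, 2 of the 19 members rose and 2 fell, against 2.35% and 2.01% of all genes. The rises were of the D-type cyclins Ccnd1 and Ccnd2. Ccnd1 read 473 and 350 against 601 and 715 (0.67, adjusted p = 0.14, or 0.0112 with the array set). Ccnd2 read 4214 and 3900 against 5830 and 5143 (0.43, adjusted p = 0.161, or 0.0334 with the array set). With an array left out, the adjusted p reached 0.276 for Myc (the call was lost without either 11 mM array or without 5.5 mM replicate 1). It reached 0.352 for Bmi1, whose call was lost without 11 mM replicate 2 or either 5.5 mM array, and also with no intensity trend (0.066). None of 26 tested cell cycle genes passed, and their median difference was 0.00. Some of them, such as Bub1 at 13 and 9 against 7 and 6, read below the median of their arrays, where a change is hard to see.

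Host genes of small nucleolar RNAs formed the list with the highest share of calls, with 4 of 11 tested members falling against 0.501% of all genes. These genes are spliced into RNAs with little or no protein, and their introns release the RNAs that guide modification of ribosomal RNA. Zfas1 read 524 and 446 at 5.5 mM and 223 and 225 at 11 mM (-1.06, SE 0.17, adjusted p = 0.00291). Snhg6 read 984 and 834 against 360 and 499 (-1.07, adjusted p = 0.00798), and Snhg12 read 517 and 400 against 240 and 254 (-0.84, adjusted p = 0.0179). Snhg8 read 1601 and 1587 against 835 and 1017 (-0.78, adjusted p = 0.048). In these 4 genes the lower 5.5 mM array was still well above the higher 11 mM array. The median over the list was -0.52, and 9 of the 11 had a difference below 0. Each of the 4 calls was lost without 5.5 mM replicate 1, at an adjusted p of 0.0947 for Zfas1. Snhg6 also lost its call without 11 mM replicate 1 (up to 0.199), Snhg12 without either 11 mM array (up to 0.402) and Snhg8 without any one of the 4 arrays (up to 0.37). Snhg8 did not pass with no filter, no intensity trend or a replicate block (up to 0.0715).

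Rps2 was the 1 cytosolic ribosomal protein gene past the threshold, among 31 tested, against 0.501% of all genes falling. It read 5638 and 5631 at 5.5 mM and 2672 and 2603 at 11 mM (-1.09, SE 0.18, adjusted p = 0.00427), on a probe set whose type can match related transcripts. Its call was lost without 5.5 mM replicate 1 or 11 mM replicate 2 (adjusted p up to 0.073). The list median was -0.13, and 20 of the 31 genes were lower on both 11 mM arrays, against 21.7% of all genes. The ribosomal RNA controls were higher on the 11 mM arrays, by 1.02 at the 3′ end, 0.79 in the middle and 0.48 at the 5′ end of 18S.

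Mt2, a metallothionein that binds zinc and copper, read 6157 and 5329 at 5.5 mM and 1888 and 2506 at 11 mM (-1.39, SE 0.25, adjusted p = 0.00798). It was the single fall among 24 tested antioxidant and metal-binding genes, against 0.501% of all genes falling. Mt1, its neighbour and close relative, read 8113 and 7574 against 3749 and 4344 (-0.96) and did not pass (adjusted p = 0.38). Without 11 mM replicate 1 or 5.5 mM replicate 1 the adjusted p of Mt2 rose to as much as 0.191. Of the 18 cytosolic heat shock genes none passed. Hspa1a and Hspa1b, the inducible HSP70 genes, were high on 5.5 mM replicate 2 alone, at 1404 and 2477, while the other 3 arrays read between 123 and 293 for Hspa1a and between 289 and 722 for Hspa1b.

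The remaining falls of large size were of mixed function. Lonp1, the main protease of the mitochondrial matrix, read 1288 and 1092 at 5.5 mM and 352 and 441 at 11 mM (-1.55, SE 0.29, adjusted p = 0.00865). Stard5, a sterol-binding protein, read 781 and 504 against 212 and 188 (-1.58, adjusted p = 0.0288). Alk, a receptor tyrosine kinase, read 140 and 120 against 32 and 40 (-1.49, adjusted p = 0.00276). Niban1, a stress-induced protein, read 357 and 336 against 89 and 133 (-1.53, adjusted p = 0.0141). The uncharacterized transcript 2410006H16Rik read 1182 and 777 against 312 and 336 (-1.52, adjusted p = 0.00313). The groups did not overlap for any of these. Each of the calls of Lonp1, Stard5, Alk, Niban1 and 2410006H16Rik was lost without 5.5 mM replicate 1. Lonp1 and Stard5 also lost theirs without either 11 mM array, and Niban1 without any one of the 4 arrays. Over the arrays left out, the adjusted p-values of the 5 genes rose to at most 0.199, 0.48, 0.073, 0.199 and 0.129.

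The falls named Dnajc17 and Tagln2 depended on the probe set in size, and for Dnajc17 also in the call. Dnajc17, a J-domain co-chaperone, read 630 and 458 at 5.5 mM and 85 and 129 at 11 mM on its brightest probe set (-2.19, adjusted p = 0.0156). A second, dim one read 19 and 25 against 18 and 34, and the mean of its probe sets did not pass (-1.03, adjusted p = 0.279). Tagln2, an actin-binding protein, differed by -1.90 on the probe set used (1192 and 1236 against 321 and 306, adjusted p = 0.00798) and by -0.39 on another. The call of Tagln2 held under all 11 other settings, the mean of probe sets among them, at -1.15 or lower (limma adjusted p up to 0.0261). Without any one of the 4 arrays both calls were lost, with differences of -2.45 to -1.93 for Dnajc17 and -1.93 to -1.87 for Tagln2.

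Cholesterol synthesis had the highest list median, 0.55 over 20 tested genes, without a single call. Of these genes 16 were higher on both 11 mM arrays, against 26.2% of all genes. The nearest to the threshold was Idi1, an isomerase of the mevalonate pathway, at 96 and 130 against 312 and 266 (1.25, adjusted p = 0.0648). Stard4, a sterol carrier, read 98 and 77 against 148 and 181 (0.80, adjusted p = 0.0751). Hmgcs1, which makes HMG-CoA, read 480 and 534 against 806 and 810 (0.66, adjusted p = 0.26). Among lipogenic genes, Scd2, a fatty acid desaturase, read 507 and 773 against 1205 and 1478 (1.07, adjusted p = 0.0526). In the fit that takes the technical set of each array into account, introduced further on, 4 of the 20 cholesterol genes and 5 of the 22 ChREBP and lipogenesis genes rose and none fell, against 2.35% of all genes rising in that fit. That fit also moved Idi1, Stard4 and Scd2 past the threshold (adjusted p = 0.0148, 0.0234 and 0.0156). Its counts also differed for other lists. Over all genes, 2.35% rose and 2.01% fell in that fit. The early response and CREB target list had 3 rises of 28 tested there, and the ribosomal protein list 4 falls of 31. The snoRNA host gene list had 5 falls of 11 and the antioxidant list 2 falls of 24. In the ATF4 and CHOP list, 1 of 26 rose, which was Cbs, and 3 fell.

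**Figure D3:**
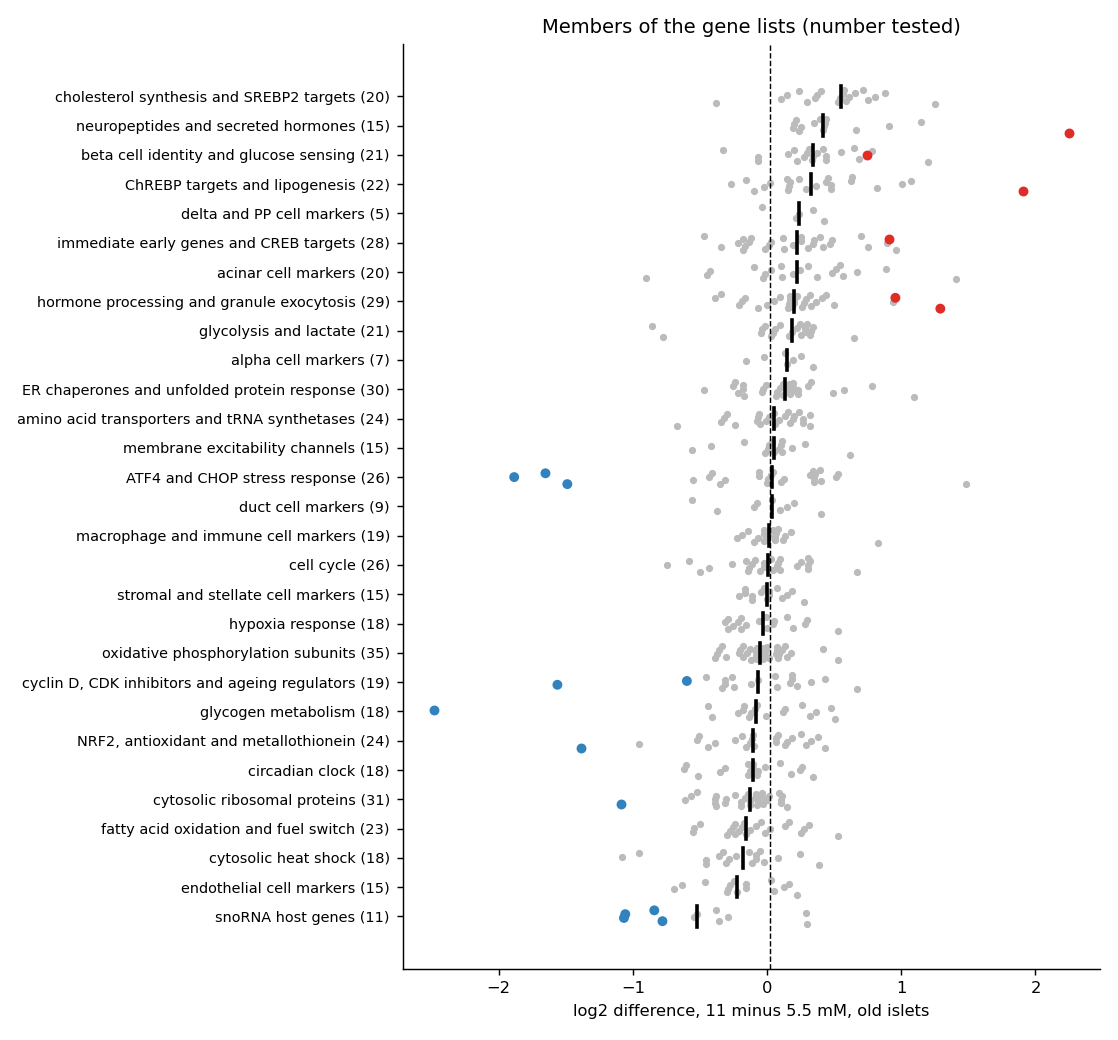
Log2 difference between 11 and 5.5 mM in old islets (horizontal axis) for the members of each of 29 gene lists (rows, number tested in brackets). Red points rose and blue points fell at an adjusted p under 0.05, black bars are list medians and the dashed line is the median of all genes, 0.02; the list medians run from 0.55 for cholesterol synthesis to -0.52 for snoRNA host genes.

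The levels at 3 mM and in fresh islets place the step from 5.5 to 11 mM within the wider range. Txnip read 364 and 319 at 3 mM, next to its 5.5 mM values, and 3123 and 1912 in fresh islets. Pdyn read 46 and 41 at 3 mM and 269 and 329 fresh, and Kcnf1 read 1 and 4 against 73 and 72. For these 3 genes the 3 and 5.5 mM values were close together, and their log2 difference from 3 to 5.5 mM was -0.18, -0.17 and 0.20 without passing (adjusted p = 0.846, 0.956 and 0.87). Angptl6 read 1469 and 1572 at 3 mM and 104 and 101 fresh, and Cyb5r1 read 1340 and 1588 against 281 and 272. Their 3 and 5.5 mM arrays stood together as well, with the fresh arrays at or below the 11 mM level.

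Slc2a2 and G6pc2 had their call at the lower step. Slc2a2 read 817 and 695 at 3 mM and rose from 3 to 5.5 mM by 1.70 (SE 0.37, adjusted p = 0.0376), beside the difference of 1.20 from 5.5 to 11 mM that did not pass. G6pc2 read 1321 and 1585 at 3 mM and rose to 5.5 mM by 1.79 (SE 0.27, adjusted p = 0.00489), beside 0.65. Both steps use the same 5.5 mM arrays, and the difference between them was not tested. Zfas1 passed at both steps: it read 1347 and 1439 at 3 mM, with a difference of -1.50 from 3 to 5.5 mM (adjusted p = 0.000289) beside -1.06. Fer1l6, at 41 and 32 at 3 mM, also passed at both (1.45, adjusted p = 0.0409, beside 1.67). Over the 57 rises the median difference was 0.35 from 3 to 5.5 mM and 1.03 from 5.5 to 11 mM, and over the 63 falls it was -0.16 and -1.10. The second value of each pair is the one the genes were chosen on.

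The same step was examined in islets of 5-week-old mice, which share no array with the old islets. The Gapdh control, read at both ends of its transcript, divided the arrays into technical sets by its ratio of 5′ over 3′ intensity. It was 1.33 to 1.42 on the 4 old arrays, whose set also holds young 11 mM replicates 3 and 4, whereas both young 5.5 mM arrays and young 11 mM replicates 1 and 2 fell in the other set. The young difference was therefore fitted with the array set as a factor. In young islets 408 genes changed (3.24%), with 184 rises (1.46%) and 224 falls (1.78%). In the same form of fit old islets gave 296 rises and 253 falls, so the count of 120 in old islets, from the fit without the array set, is not comparable with 408.

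All 57 genes that rose in old islets also had a difference above 0 in young islets, and 38 of them rose there. These 38 were 66.67% of the old rises and 20.65% of the young rises. Of the 63 that fell in old islets, 62 had a difference below 0 in young islets and 51 fell, which is 80.95% of the old falls and 22.77% of the young falls. These shares set old calls from the fit without the array set against young calls from the fit with it. With the array set in both, 101 of the 296 old rises rose in young islets (34.12%, and 54.89% of the young rises). Likewise 110 of the 253 old falls fell (43.48%, and 49.11% of the young falls). No gene passed in opposite directions in either version. Over all genes, 51.34% had a young difference above 0 and 48.66% one below 0. The median young difference was 0.77 over the old rises and -1.04 over the old falls.

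**Figure D4:**
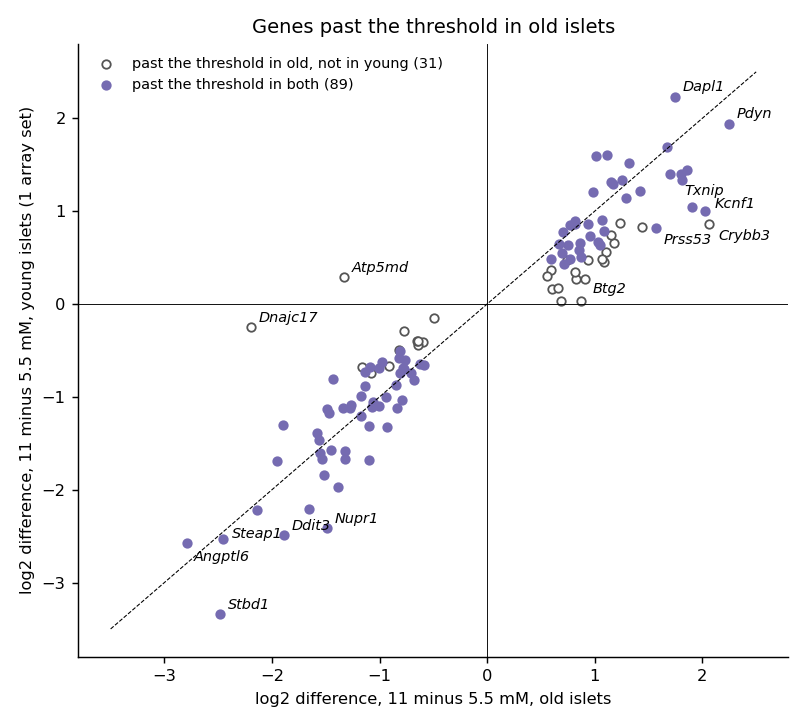
Log2 difference between 11 and 5.5 mM in young islets (vertical axis) against that in old islets (horizontal axis) for the 120 genes past the threshold in old islets. Filled points also passed in young islets, open points did not, and the dashed line marks equal differences; Atp5md is the 1 gene that fell in old islets with a young difference above 0, at 0.29.

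For named genes, the young values and the tests between ages were as follows. Angptl6 differed by -2.58 in young islets (adjusted p = 3.293e-08) and Steap1 by -2.54 (adjusted p = 2.412e-08). Pcsk1 differed by 1.15 in young islets (adjusted p = 0.000549). Txnip differed by 1.04 in young islets (406 and 353 against 722 and 876, adjusted p = 0.00424), and the old minus young difference of 0.86 (SE 0.28) had an adjusted p of 0.9999. Nupr1 differed by -2.42 in young islets, with an old minus young difference of 0.93 (SE 0.30, adjusted p = 0.9999). Btg2 differed by 0.27 in young islets and did not pass there (adjusted p = 0.303); its old minus young difference was 0.64 (SE 0.18, adjusted p = 0.9999). Atp5md, a subunit of the mitochondrial ATP synthase, fell by 1.33 in old islets (adjusted p = 0.0226) and its old minus young difference was -1.62 (SE 0.38, adjusted p = 0.9999).

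In the direct test, limma called 0 genes (0%) for a different response at the 2 ages, and 414 genes, 3.29% of those tested, had an unadjusted p under 0.05. The old difference came from arrays of 1 technical set and the young difference from arrays of the other. Age and array set therefore cannot be told apart in this test. The smallest adjusted p, 0.0645, belonged to Mki67, the gene of the proliferation marker Ki-67. It read 14 and 27 at 5.5 mM and 7 and 4 at 11 mM in old islets (-0.74, SE 0.33, adjusted p = 0.38). Mki67 lay below the median intensity of each of these arrays, 33 at 5.5 mM and 34 at 11 mM, so its old difference is between readings near the floor. In young islets it read 58 and 43 against 121 and 246 and rose (1.52, SE 0.26, adjusted p = 0.00182). The old minus young difference of Mki67 was -2.26 (SE 0.37). All of the old values of Mki67 were below these 4 young values, which come from the other array set, and old arrays at 3 mM (18 and 15) and fresh (10 and 12) were in the same range. Among other cell cycle genes in old islets, Foxm1 differed by -0.58 and Mcm2 by 0.67, and neither passed (adjusted p = 0.608 and 0.7).

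The number of calls in old islets depended on which arrays were in the fit and on the form of the fit. All 120 genes kept their direction with any 1 of the 4 arrays left out. A group of 1 array gives a wider SE for the same spread, so a lost call can go with a similar difference. Without 5.5 mM replicate 1, 13 genes passed in all. Without 11 mM replicate 2 the count was 28, without 11 mM replicate 1 it was 53 and without 5.5 mM replicate 2 it was 65. The genes that passed in each of these fits include Txnip, Kcnf1 and Pcsk1 among the named rises and Angptl6, Steap1, Cyb5r1, Stbd1 and Akna among the named falls. With the array set as a factor, 549 genes changed, of which 296 rose (2.35%) and 253 fell (2.01%). With the 8 old arrays alone it was 735, and with the 4 compared arrays alone 453. All 120 calls stood in the first 2 of these fits and 119 in the last. The share of rises among the calls was 47.5% over all 26 arrays, 53.92% with the array set as a factor, 59.05% with old arrays alone and 60.49% with the 4 arrays alone.

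**Figure D5:**
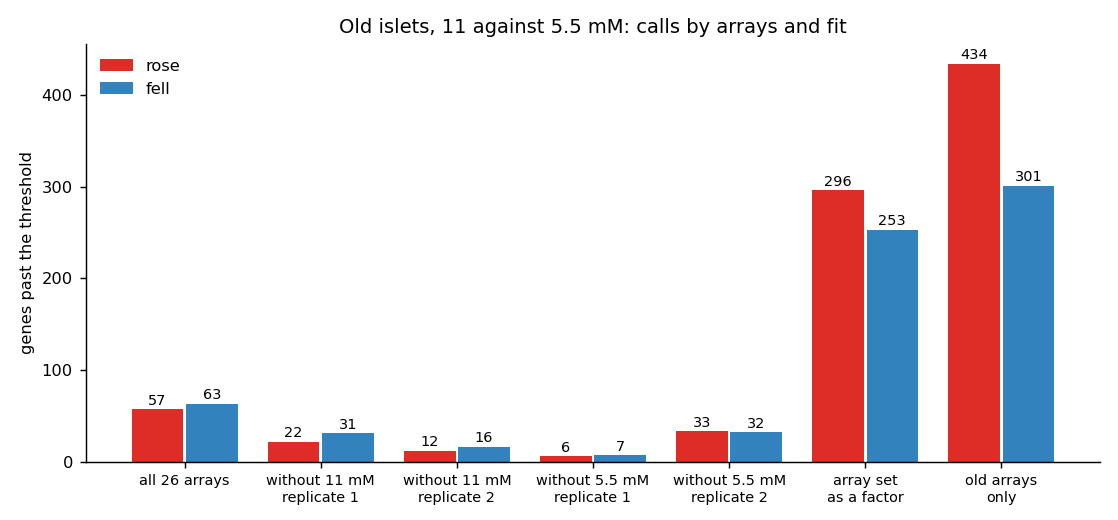
Number of genes past an adjusted p of 0.05 between 11 and 5.5 mM in old islets (vertical axis, from 0), with rises in red and falls in blue, for all 26 arrays, without each of the 4 arrays, with the array set as a factor and with old arrays only. The counts run from 6 rises and 7 falls without 5.5 mM replicate 1 to 434 rises and 301 falls with old arrays only.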

How the data were processed

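The deposited values are linear probe set intensities that the submitters' processing notes credit to MAS5, whose version is not given in the sources used here. Per the labels' protocols, total RNA was isolated with Trizol, and 50 ng of it went through 2 rounds of cDNA synthesis before labelling. With 2% of probe sets trimmed from each end, the mean intensity came to 150 on every array, so the authors had scaled the deposited values to 1 level. Detection calls and depth are not part of these values, and the number of arrays limits the precision.

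Of 45101 probe sets, 34945 have 1 gene symbol in the platform annotation, 932 several and 9160 none, and 64 are controls. Those with several symbols were left out. Ins1 and Mafa are not named by the annotation and were not analysed here. Values were taken as log2(intensity + 16), which understates changes of dim genes. The filter kept the 23047 probe sets that exceeded the median of their array in 2 or more of the 26 arrays, and the brightest by mean log2 value over the 26 arrays stood for each gene (12580 genes). In R 4.3.3, limma 3.58.1 fitted 12 group means with an intensity trend (14 residual and 5.33 prior degrees of freedom, 13 and 7.02 with the array set as a factor, divided at a Gapdh ratio of 0.5). P-values were adjusted by Benjamini-Hochberg over all genes, and no set test was run. SE is limma's moderated standard error.

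The members, gene lists, motifs and tests were chosen with earlier results of these data known. The text names the 15 largest rises and 15 largest falls past the threshold whose arrays do not overlap, up to 4 called members of each list, and Ins2, Slc2a2, G6pc2, Pdx1, Pcsk1, Txnip, Ddit3, Stbd1 and Mki67; other genes were chosen after their values were seen. Same-numbered arrays of old islets at 5.5 and 11 mM deviated from their group means with a correlation of 0.062, and over pairs of old groups it ran from 0.056 to 0.196. Not every pair exceeded 0.1, a cut-off chosen here, and the numbers were not taken as pairs. Young groups were not checked in this way. The values of other offsets, filters, scalings and probe set rules were computed as alternatives.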

Additional observations from a re-analysis of the deposited data

How the results depend on the processing

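Between 11 and 5.5 mM in old islets, 120 genes passed in all 26 arrays, and the count stayed within 1.5 times that under 8 alternatives. It was 116 with an offset of 1, 141 with 64, 100 with no filter on low values and 132 with a stricter one. It was 154 after quantile normalization, 129 with the mean of probe sets and 97 with no intensity trend. The count was 110 with a replicate block (51 rises, 59 falls), a pairing the main fit did not use. It was 549 with the array set as a factor, 735 with old arrays only and 453 with only the arrays compared. Leaving out 1 array gave 13 to 65. In young islets (408), the count was 618 with no array set factor, 44 with only the arrays compared, 601 with a replicate block and 82 to 484 with 1 array left out. The old minus young difference (0) gave 1 gene with an offset of 1, 1 with the mean of probe sets, and 0 to 1 with 1 array left out (1 without young 11 mM replicate 1). With a group reduced to 1 array, that array is assumed to vary like the others. With old arrays only, no young value can be had. Over single named genes of the old comparison and these alternatives, 1023 values kept their direction and side of the threshold, 155 kept direction but no longer passed and 36 newly passed. For old islets, the fits with and without the array set gave the same log2 differences, with a median of 0.02 over all genes in both. They differed in the SEs and degrees of freedom. The SE of Phactr1 was 0.40 without the array set and 0.20 with it, and that of Kcnf1 0.26 and 0.27. Young 11 mM was the only group with arrays of both sets. Without the factor, the gap between its sets counts as spread within that group in the SE of every comparison. How far this moved the SEs or the counts was not tested. With 2 arrays per group, the median SE of 0.23 limits what small differences can show.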

Other observations

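Some called genes with known roles in mitochondria were chosen after their values were seen, from no list and with no test of the group. Whether their calls held with an array left out is not given here. Hspa9, the HSP70 chaperone of the mitochondrial matrix, fell by 1.27 on the log2 scale (limma adjusted p = 0.000375). Dnaja3, its J-domain partner, fell by 0.59 (adjusted p = 0.0495), and Mrpl23, a mitochondrial ribosomal protein, fell by 0.63 (adjusted p = 0.0189). Ndufaf4, an assembly factor of respiratory complex I, fell by 0.65 (adjusted p = 0.0358), and Mff, a receptor for mitochondrial fission, fell by 0.81 (adjusted p = 0.0351). Nrf1, a transcription factor of mitochondrial genes, fell by 0.93 (adjusted p = 0.00769). Hspd1 and Hspe1, the chaperonin pair of the same compartment, differed by -0.45 and -0.31 without passing (adjusted p = 0.145 and 0.628). Fh1, the fumarase of the citrate cycle, rose by 0.77 (adjusted p = 0.0037). Atp5md, a small subunit of ATP synthase that is not on the list of oxidative phosphorylation subunits, fell by 1.33 (adjusted p = 0.0226). Its 5.5 mM arrays were far apart, at 911 and 1574, against 414 and 528 at 11 mM. None of the 35 tested members of that list passed, and their median difference was -0.06. With the array set as a factor, 1 of the 35 rose and 2 fell, against 2.35% and 2.01% of all genes.

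Further genes outside the lists were also chosen after their values were seen, and are likewise given without the fits that leave out an array. Vdr, the vitamin D receptor, rose by 0.81 (adjusted p = 0.0251), and Maob, a monoamine oxidase, rose by 0.85 (adjusted p = 0.0115). Aqp4, a water channel best known from astrocytes, rose by 1.08 (adjusted p = 0.0103), beside a rise of 1.46 from 3 to 5.5 mM (adjusted p = 0.00344) that shares the 5.5 mM arrays. Entpd2, an ectonucleotidase, fell by 1.32 (adjusted p = 0.00861).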
